A study of Mus musculus with 17 samples.

Results

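Wild-type bone marrow-derived macrophages were compared after 400 min and after 100 min of IL-6, using the 3 arrays labelled WT at each time, 6 of the 17 arrays in all. The cells at both times were made from the marrow of irradiated recipient mice that had been given SOCS3+/+ fetal liver cells, and the donor-derived marrow was differentiated to macrophages. IL-6 was then added at 10 ng/ml and the cells were taken after 100 or 400 min, when their total RNA was put on oligonucleotide arrays, 1 sample per array. The other arrays hold the same cells without IL-6 (2 arrays) and cells from SOCS3-/- fetal liver, called KO here, without IL-6 or with the same dose for 100 or 400 min (3 arrays each). The labels do not say whether replicates 1 to 3 are separate mice or cultures, so the p-values measure the spread between these arrays, which may be technical. They also do not state how completely the host's own blood cells had been replaced.

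IL-6 binds its receptor together with gp130, which activates JAK kinases and the transcription factor STAT3. IL-6 can also switch on genes otherwise known as interferon-inducible. STAT3 induces SOCS3, which binds gp130 and the JAKs and limits further signalling. The comparison asks which genes are switched off and which are kept on between the early and the late time while that feedback is in place.

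The arrays carried 12488 probe sets, and the median deposited intensity per array ranged from 164.25 to 200.3. Socs3, the deleted gene, was checked in the deposited intensities. Its first probe set read 429.5 to 2647.6 on the WT arrays given IL-6 and 14.9 to 160.2 on all KO arrays but the one labelled KO 400 min replicate 3, where it read 883.7. The second probe set read 784.3 on that array and 319.7 on KO 100 min replicate 3. It read 29.8 to 148.5 on the remaining KO arrays and 479.7 to 1333 on the WT arrays given IL-6. Macrophage markers were high at both times, with Csf1r, the receptor for the macrophage growth factor, at 23708 ± 7395 (SD, n = 3) at 100 min and 22788 ± 3028 at 400 min. None of the 24 tested markers was dim on all 6 arrays. That count does not set macrophages apart, because the filter for testing already removed most dim genes. The 7 lists for other cell types had only 0 to 2 such markers each. The summed intensity of the 24 markers ran from 198628 to 250239 at 100 min and from 234022 to 240024 at 400 min, and the ranges of the 7 marker lists for other cell types also overlapped between the times, such as neutrophil and precursor markers, from 2079 to 2874 and from 1462 to 2525. Of the 14 neutrophil and precursor markers tested, 11 had a negative log2 difference, with a median of -0.32 (-0.4, -0.22 and -0.51 in replicate numbers 1 to 3), the direction also taken by interferon genes below, and the part of these cells in the results was not tested. The WT replicate 3 arrays stood apart from replicates 1 and 2 in the genes of interest. The median log2 difference of replicate 3 from the others was -0.91 for the type I interferon list, against -0.02 for all genes. For the genes raised by IL-6 in KO cells, described below, it was -0.62. The type I list, the named interferon genes with the larger differences and several pathway genes are therefore also given without WT replicate 3.

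Of 9871 probe sets tested with limma, 0 were called higher and 0 lower at 400 min at an adjusted p under 0.05. At an unadjusted p under 0.05, 828 probe sets passed, 8.39% of those tested, and the lowest adjusted p was 0.0856, shared by 4 probe sets. The median standard error of the log2 difference was 0.36, which leaves small differences undetectable with 3 arrays a time. The count depended on the fit. With a stricter filter on dim probe sets, limma called 7 higher and 10 lower of 6026, and with a variance prior that follows intensity and is robust to outliers it called 26 higher and 27 lower. Under that last setting 4 of the 21 named genes called lower were on the list of type I interferon genes, against 0 of 23 called higher. That list held 32 of the 7063 genes tested. Among named genes called lower, it held 1 of 7 with the stricter filter and 1 of 2 with a floor of 100. With a replicate block shared by both genotypes it held 0 of 2, and without WT replicate 3 it held 0 of 1. All differences below are therefore given as values with their adjusted p from the limma fit across all probe sets. A log2 difference is 400 min minus 100 min on the floored log2 intensity scale, ± its SE.

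Among the genes that lay lowest at 400 min were immunity-related GTPases, interferon-inducible proteins that attack the vacuoles of intracellular pathogens. The stretches of 250 bases before the transcription starts of 3 of them are shown because these windows hold matches to the motifs searched. Not all genes with this time course do: the windows of Ifi47, of the same family, and of Tap1 hold a match to neither motif. They come from RefSeq (GRCm38.p6), are read 5′ to 3′ along the gene, and lie at chr11:48871421-48871670 on the minus strand for Irgm1, chr11:58214727-58214976 on the plus strand for Irgm2 and chr11:58199306-58199555 on the plus strand for Igtp. Capitals mark matches to TTCNNNGAA, the letters of a STAT site, and to the core of an interferon-stimulated response element (ISRE), which is GAAA, any 2 bases and GAAA again, searched on both strands with any overlap allowed.
Irgm1: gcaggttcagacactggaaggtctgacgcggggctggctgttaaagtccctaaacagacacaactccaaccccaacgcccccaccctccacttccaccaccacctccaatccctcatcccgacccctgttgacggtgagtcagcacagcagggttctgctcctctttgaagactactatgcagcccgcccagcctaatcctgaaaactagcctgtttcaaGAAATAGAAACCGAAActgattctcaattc
Irgm2: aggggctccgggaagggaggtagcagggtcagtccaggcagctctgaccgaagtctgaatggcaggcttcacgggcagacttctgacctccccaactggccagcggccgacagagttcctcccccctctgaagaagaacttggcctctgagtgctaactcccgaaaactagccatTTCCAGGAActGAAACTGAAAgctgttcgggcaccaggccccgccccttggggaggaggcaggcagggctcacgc
Igtp: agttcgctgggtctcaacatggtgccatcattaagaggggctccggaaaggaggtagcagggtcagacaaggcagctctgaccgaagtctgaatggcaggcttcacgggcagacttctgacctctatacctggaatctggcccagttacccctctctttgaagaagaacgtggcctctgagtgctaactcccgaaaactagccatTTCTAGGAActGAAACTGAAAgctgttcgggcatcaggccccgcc
In Irgm1, 2 overlapping ISRE core matches begin 30 and 24 bases before the start. In Irgm2 the match to TTCNNNGAA begins 75 bases and the ISRE core match 64 bases before the start, and in Igtp they begin 45 and 34 bases before it.

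Iigp1, which helps to break open parasite vacuoles, had normalized intensities of 760, 517 and 339 on the 3 arrays at 100 min and of 160, 21.9 and 38.4 at 400 min. All 3 late arrays lay below all early ones, and without IL-6 the gene read 24.9 and 16.1. Its log2 difference was -3.31 ± 0.54, or 9.92-fold lower (limma's adjusted p = 0.119), and a second probe set gave -3.22. The late value of 21.9 lay just under the floor of 22.01, so the size of the difference depends on the floor. Over the 17 alternative fits it ran from -3.85 to -2.13. Irgm1, a regulator of the other family members and of autophagy, read 1635, 2188 and 962 at 100 min and 308, 400 and 377 at 400 min. These groups did not overlap either, and the log2 difference was -2.07 ± 0.29, 4.2-fold lower (limma's adjusted p = 0.0898). Irgm2, a close relative in the same group, read 2594, 3358 and 1401 and then 622, 725 and 553, again with no overlap (-1.87 ± 0.29, limma's adjusted p = 0.118).

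Igtp, the family member also known as Irgm3, went from 2406, 2268 and 680 at 100 min to 362, 552 and 353 at 400 min, a log2 difference of -1.9 ± 0.43 (limma's adjusted p = 0.246). Ifi47, a GTPase of the same family, read 3149, 2600 and 635 at 100 min and 479, 651 and 233 at 400 min. Here the groups overlapped, because replicate 3 at 100 min was below replicate 2 at 400 min, yet the late array was lower within each of the 3 replicate numbers. The log2 difference was -2.05 ± 0.27 with limma's adjusted p of 0.0856, the lowest reached in this comparison and shared by 4 probe sets. Rabgap1l, a dim gene described below, had the same adjusted p. Irgm1 was called in 4 of 17 alternative fits, Ifi47 in 3, and Iigp1 and Irgm2 in 2 each. Over those fits their adjusted p ran from 0.000606 to 0.689 for Irgm1 and to 0.813 for Ifi47, from 0.00578 to 0.689 for Iigp1, and from 0.000699 to 0.689 for Irgm2. In bulk RNA, fewer cells expressing a gene and less of its RNA per cell cannot be told apart.

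**Figure D1:**
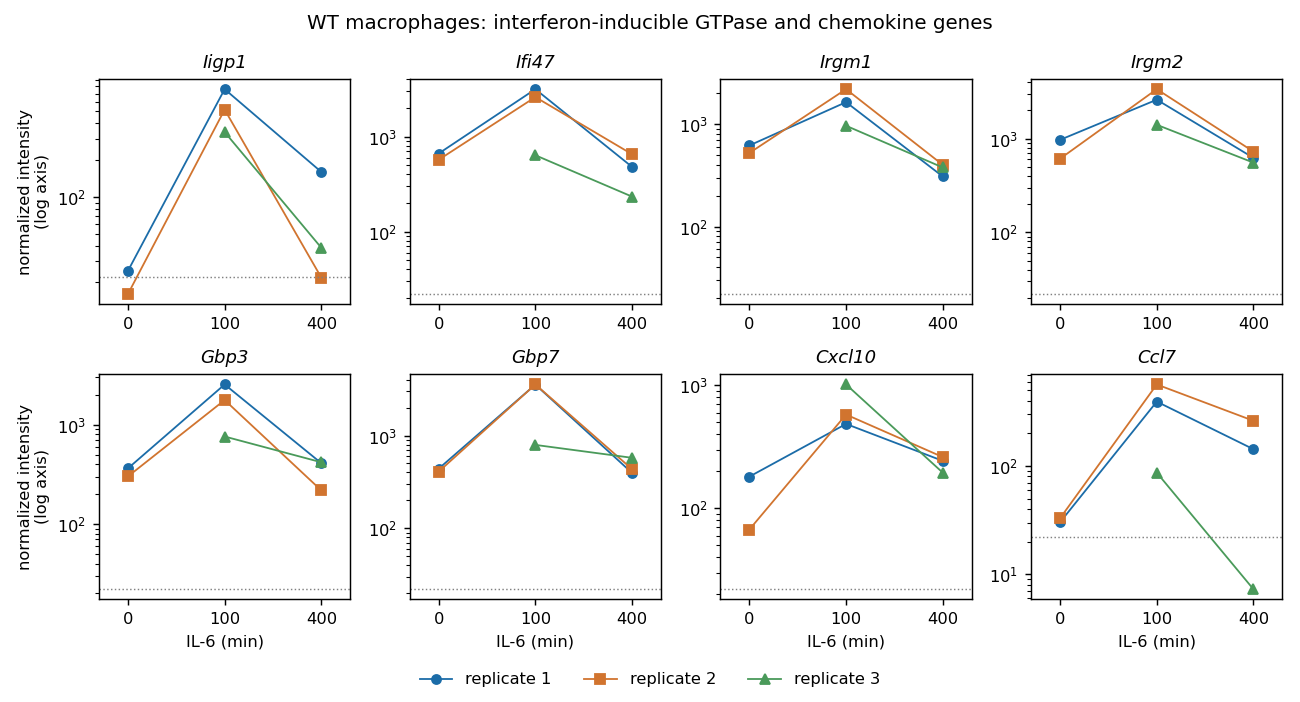
Normalized intensity (log axis) against minutes of IL-6 for 8 genes in WT macrophages, 1 point per array, lines joining arrays of the same replicate number; the dotted line is the floor of 22.01 and there is no unstimulated replicate 3. Each gene is lower at 400 than at 100 min in every replicate number, as for Irgm1, at 962 to 2188 and then 308 to 400. The size of the difference varies between replicates, and Ccl7 in replicate 3 is low at both times.

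The guanylate-binding proteins, larger interferon-inducible GTPases that coat pathogen vacuoles, had lower values at 400 min as well. Gbp7 had the following RefSeq sequence before its start (chr3:142530086-142530335, plus strand), shown because it holds 2 matches to TTCNNNGAA and 1 to the ISRE core, the last on the opposite strand and so in capitals as its complement.
Gbp7: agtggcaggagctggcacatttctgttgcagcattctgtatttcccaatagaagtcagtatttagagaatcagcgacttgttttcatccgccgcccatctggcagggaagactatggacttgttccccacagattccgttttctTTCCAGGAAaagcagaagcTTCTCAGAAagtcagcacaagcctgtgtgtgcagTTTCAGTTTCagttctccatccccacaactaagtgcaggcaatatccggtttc
Gbp7 read 3539, 3551 and 792 at 100 min and 395, 434 and 575 at 400 min, against 439 and 408 without IL-6. The groups did not overlap, and the log2 difference of -2.22 ± 0.47 (limma's adjusted p = 0.234) was -3.1 without replicate 3, when the gene was called (2 of 17 alternative fits called it, with limma's adjusted p from 0.00661 to 0.734). Gbp3 read 2550, 1776 and 762 and then 410, 218 and 419, also without overlap (-2.17 ± 0.44, limma's adjusted p = 0.21). Gbp2b, the mouse gene formerly called Gbp1, read 1022, 991 and 188 and then 114, 210 and 124, with an overlap through replicate 3 (-2 ± 0.45, limma's adjusted p = 0.243).

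Gbp2 differed less between the times. It read 2162, 1770 and 775 at 100 min and 893, 947 and 546 at 400 min, so the groups overlapped, and the late values stayed above the 404 and 331 of unstimulated cells. The log2 difference was -0.89 ± 0.38 (limma's adjusted p = 0.575). Members of both GTPase families resemble one another in sequence, so that signal of one can reach the probe sets of another.

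Genes best known from the type I interferon response had a similar time course, from higher unstimulated levels. Ifit3, which binds foreign RNA and helps block its translation, read 1203 and 1355 without IL-6, 1993, 1748 and 431 at 100 min and 334, 412 and 39 at 400 min. Only the lowest early array came near the late ones, and the log2 difference was -2.71 ± 0.53, 6.54-fold lower (limma's adjusted p = 0.204). Usp18, which removes ISG15 from proteins and blocks the type I interferon receptor, read 1428, 1404 and 711 and then 556, 425 and 254, with no overlap (-1.52 ± 0.28, limma's adjusted p = 0.17). Ifit1, a sensor of viral RNA caps, read 2806, 2504 and 310 and then 679, 494 and 137, lower within each replicate number but overlapping (-1.86 ± 0.42, limma's adjusted p = 0.243).

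Without WT replicate 3, the log2 differences of the GTPase genes were -3.4 for Iigp1, -2.43 for Irgm1, -2.14 for Irgm2, -2.36 for Ifi47, -2.83 for Gbp3, -2.7 for Gbp2b and -1.09 for Gbp2, and none of these 7 was called (limma's adjusted p from 0.0764 to 0.637). Those of Ifit3, Ifit1 and Usp18 were -2.33, -2.19 and -1.54 (limma's adjusted p = 0.387, 0.278 and 0.292).

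Other members showed smaller differences. Isg15, the ubiquitin-like modifier, read 2889, 2374 and 1659 at 100 min and 1755, 1526 and 714 at 400 min (-0.86 ± 0.3, limma's adjusted p = 0.485). Irf9, the DNA-binding part of the type I interferon transcription complex, read 1396, 1852 and 989 and then 937, 902 and 931, just apart (-0.57 ± 0.22). Irf7, the amplifier of type I interferon production, overlapped, with 1572, 1275 and 791 against 1295, 1691 and 425. Rsad2, which makes an antiviral nucleotide, averaged 539 ± 268 (SD, n = 3) at 100 min and 215 ± 32.2 at 400 min. Its unstimulated arrays read 373 and 350, so that all 3 late arrays, between 190 and 251, were below them.

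Of 48 genes on the type I interferon list, 32 were on the array and tested, and 29 of the 32 had a negative log2 difference, with a median of -0.76. In 7 of the 32 (21.9%) the late arrays all lay below the early ones, and in 0 above. Over all 7063 genes, 5.89% were lower with no overlap and 6.34% higher, with a median difference of -0.01. The 7 were Ifit3, Usp18, Cxcl10, Tor3a, Plscr1, Mx2 and Irf9. The median of the list was -1.01, -1 and -0.34 in replicate numbers 1 to 3, and without replicate 3 it was -1.05 with 24 of the 32 genes apart, a count that 2 arrays a time make easier to reach and that compares with 22.8% of all genes.

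**Figure D2:**
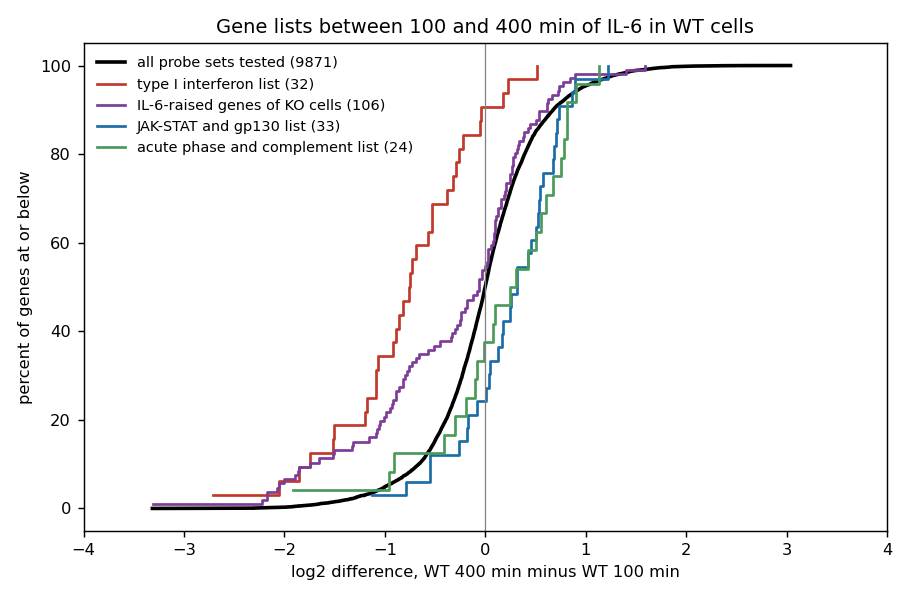
Percent of genes (vertical axis) at or below each log2 difference between 400 and 100 min in WT cells (horizontal axis) for 4 gene lists, with the number of genes in brackets, and for all 9871 probe sets tested in black. The curve of the type I interferon list lies to the left of the black one, with its median at -0.76, while that of the JAK-STAT list lies to the right, with its median at 0.31.

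The promoter table held 25 of the 32 type I genes, of which 8 (32%) had a match to TTCNNNGAA and 10 (40%) to the ISRE core. Among all 27025 genes of the table the shares were 9.55% and 3.99%, and among all 32851 windows of 300 bases 8.3% and 3.44%. Of the 10 named genes with the smallest p on the lower side, 8 were in the table, 4 with the ISRE core and 2 with TTCNNNGAA, and of the 10 on the higher side 7 were, 0 with the core and 1 with TTCNNNGAA. A match describes letters in that window, not binding.

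Chemokines of the interferon group were lower at 400 min as well. Cxcl10, which draws T cells to inflamed tissue, carries its ISRE core match 213 bases before the start in the RefSeq window (chr5:92348890-92349139, minus strand), farther upstream than in the GTPase genes above.
Cxcl10: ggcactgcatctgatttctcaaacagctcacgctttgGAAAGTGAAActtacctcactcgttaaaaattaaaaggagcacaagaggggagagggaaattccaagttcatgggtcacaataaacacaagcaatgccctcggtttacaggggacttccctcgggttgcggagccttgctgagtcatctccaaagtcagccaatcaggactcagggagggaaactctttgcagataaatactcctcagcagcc
It read 181 and 67.3 without IL-6, 485, 578 and 1015 at 100 min and 243, 261 and 195 at 400 min. All late arrays were below all early ones, with a log2 difference of -1.51 ± 0.42 (limma's adjusted p = 0.396), and here replicate 3 was the highest of the early arrays. Without WT replicate 3 the difference was -1.07 (limma's adjusted p = 0.638). Cxcl9, a ligand of the same receptor, was dim, with 230, 65 and 22.2 at 100 min and 9.17, 6.31 and 10.2 at 400 min, all 3 late values below the floor (-1.65 ± 0.94).

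The monocyte attractants followed the same order with more overlap. Ccl7 read 30.2 and 32.9 without IL-6, 394, 568 and 86.8 at 100 min and 143, 262 and 7.24 at 400 min. The late array was lower within each replicate number, but replicate 3 was low at both times, and its late value lay under the floor. The log2 difference was -1.52 ± 0.23 (limma's adjusted p = 0.111). Ccl2, the main monocyte attractant, read 1998, 2079 and 146 and then 595, 681 and 164, so that replicate 3 did not share the direction of the others (-1.06 ± 0.46). Ccl12 read 243, 290 and 51.6 and then 183, 41.8 and 43.1 (-1.16 ± 0.56). Of the 20 chemokines tested, 2 (10%) were lower with no overlap, Cxcl9 and Cxcl10, and 0 were higher, against 5.89% and 6.34% of all genes. The median difference of the 20 was -0.05.

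Several interferon-inducible genes of antigen processing were measured, described here without a list of their own. Tap1, a subunit of the peptide transporter for MHC class I, read 2032, 2231 and 1438 at 100 min and 977, 946 and 752 at 400 min, below its 1230 and 1194 without IL-6. The groups did not overlap (-1.08 ± 0.2, limma's adjusted p = 0.17). Psmb9, an immunoproteasome subunit, read 1580, 1309 and 1127 and then 1269, 1231 and 1148, fully overlapping (-0.13 ± 0.19). B2m, the light chain of MHC class I, lay between 17021 and 19940 and then between 14940 and 16787, apart by a small margin (-0.22 ± 0.18, limma's adjusted p = 0.791). The others tested, Tap2, Tapbp, Psmb8, Psmb10 and Psme1, overlapped between the times, with log2 differences from -0.2 for Psmb8 to 0.1 for Psmb10. Irf1, an interferon-inducible transcription factor, read 1374, 1357 and 911 and then 1108, 1116 and 689, an overlapping difference of -0.33 ± 0.26 (limma's adjusted p = 0.791).

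Socs3 itself was still far above its unstimulated level at 400 min. The RefSeq sequence before its start (chr11:117969367-117969616, minus strand) is shown because Socs3 is the feedback gene under study. It holds a match to TTCNNNGAA and none to the ISRE core, and the windows of Il4ra, Ptpn1, Stat3 and Klf3, also described as level or higher late, hold neither.
Socs3: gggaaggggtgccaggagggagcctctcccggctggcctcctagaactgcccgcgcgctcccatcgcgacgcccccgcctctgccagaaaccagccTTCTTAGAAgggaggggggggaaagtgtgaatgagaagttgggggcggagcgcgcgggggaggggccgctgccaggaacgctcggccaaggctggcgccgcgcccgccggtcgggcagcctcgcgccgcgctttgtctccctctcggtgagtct
Its first probe set read 115 and 54.9 without IL-6, 2552, 1809 and 432 at 100 min and 2400, 2036 and 2117 at 400 min. Replicate 3 at 100 min was the low array, and the others at both times lay between 1809 and 2552. The log2 difference was 0.79 ± 0.74 (limma's adjusted p = 0.825), and 0.04 without WT replicate 3. The second probe set read 1290, 1186 and 483 and then 1326, 1105 and 1289, a difference of 0.45, which was -0.03 without replicate 3.

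The receptor and signalling genes of the pathway were mostly at or above their early level. Il6st, which encodes gp130, read 901, 864 and 586 at 100 min and 1312, 1199 and 822 at 400 min, higher within each replicate number but overlapping (0.5 ± 0.19, limma's adjusted p = 0.516). Il6ra, the ligand-binding chain, read 305, 283 and 237 and then 340, 537 and 493, with no overlap (0.71 ± 0.52, limma's adjusted p = 0.768). Stat3, the main transcription factor of the pathway, read 3294, 2586 and 1771 and then 3605, 3910 and 3193, against 1745 and 2060 without IL-6 (0.53 ± 0.19, limma's adjusted p = 0.515). Jak3, a kinase of the common gamma chain receptors, read 831, 746 and 191 and then 1558, 1233 and 776 (1.22 ± 0.3, limma's adjusted p = 0.305). Without WT replicate 3, the differences of Il6st, Il6ra, Stat3 and Jak3 were 0.51, 0.54, 0.36 and 0.82 (limma's adjusted p from 0.534 to 0.915).

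The phosphatases that dampen JAK and STAT signals did not go one way. Ptpn1, which dephosphorylates JAK2 and TYK2, read 3817, 3578 and 2201 at 100 min and 5435, 5747 and 6186 at 400 min, with no overlap (0.89 ± 0.3, limma's adjusted p = 0.484). Without WT replicate 3 its difference was 0.6 (limma's adjusted p = 0.749). Ptpn2, which acts on JAK1 and JAK3, read 325, 402 and 276 and then 187, 263 and 235, apart in the other direction (-0.55 ± 0.22, limma's adjusted p = 0.539). Socs1, the feedback inhibitor of interferon receptors, was dim and overlapped, with 215, 255 and 59.7 against 140, 197 and 100 (-0.08 ± 0.32). Of 43 genes on the JAK-STAT and gp130 list, 33 were tested and 25 of them had a positive difference, with a median of 0.31 and between 0.19 and 0.34 over the 17 alternative fits. In 5 of the 33 (15.2%) the late arrays lay above the early ones and in 2 (6.06%) below, against 6.34% and 5.89% of all genes. Of all 7063 genes, 3454 had a positive difference. In KO cells the median of the list was 0.2, with 11 of the 33 genes higher and 2 lower with no overlap, against 537 and 551 of all 7063 genes.

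Il4ra, whose product is shared by the IL-4 and IL-13 receptors, was among the genes kept on. It read 880 and 938 without IL-6, 8581, 7917 and 4122 at 100 min and 11502, 11502 and 9603 at 400 min. All late arrays were above all early ones, with a log2 difference of 0.73 ± 0.27 (limma's adjusted p = 0.515). Without WT replicate 3, low at 100 min, the difference was 0.48 (limma's adjusted p = 0.787). Il4ra was also 1 of 5 genes that rose with IL-6 in WT cells when both times together were set against unstimulated cells (log2 difference 3.42, limma's adjusted p = 0.00336). The others were Ccl7 (3.26, adjusted p = 0.0021), Meg3, a noncoding RNA (2.39, adjusted p = 0.0164), Fgl2, a fibrinogen-like protein with prothrombinase activity (2.2, adjusted p = 0.0164), and Ocln, a tight junction protein (2.34, adjusted p = 0.0168). Those 5 probe sets are 0.0507% of the 9871 tested. Il4ra was called in 13 of 17 alternative fits and Ccl7 in 11, but Fgl2 in 9 of 17, Meg3 in 5 of 16 and Ocln in 3 of 16, with values from 0.47 to 2.78 for Meg3 and from 0.24 to 3.02 for Ocln. Of these genes, Ccl7 was lower at 400 than at 100 min within each replicate number, Il4ra, Fgl2 and Meg3 were higher, and Ocln, at 113 ± 19.8 (SD, n = 3) and 117 ± 35.7, was neither.

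**Figure D3:**
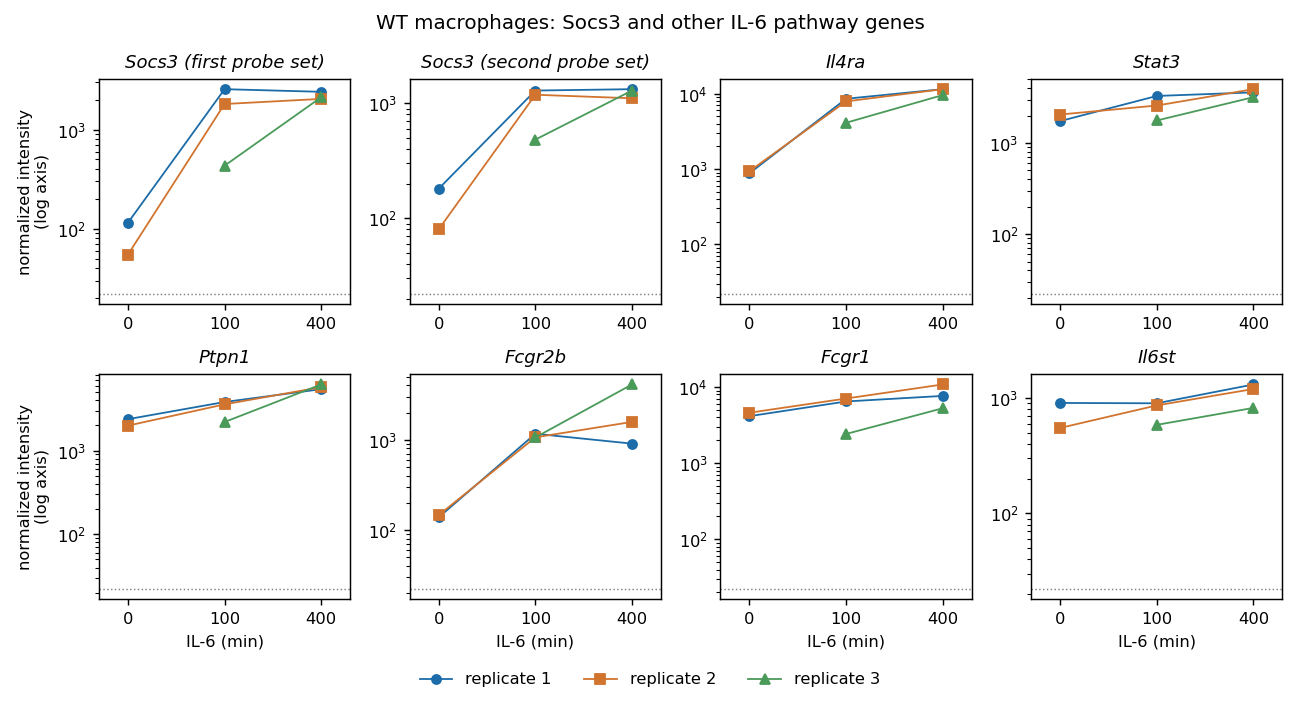
Normalized intensity (log axis) against minutes of IL-6 in WT macrophages for 7 IL-6 pathway or target genes, with both probe sets of Socs3, drawn as in the plot of the GTPase genes. Most early and late points lie above the unstimulated ones, and the replicate 3 array at 100 min is the lowest early point in every panel.

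Known STAT3 and IL-10 target genes were on balance level between the times. Of 49 listed, 44 were tested, 21 with a positive and 23 with a negative difference, and the median was -0.05. The late arrays lay above the early ones in 2 (4.55%) and below in 2 (4.55%), against 6.34% and 5.89% of all genes. Bcl3, a nuclear partner of NF-kappaB, read 717 and 748 without IL-6, 2201, 1972 and 1246 at 100 min and 2066, 2559 and 1164 at 400 min (0.06 ± 0.38). Pim1, a survival kinase, read 3043, 2691 and 1864 and then 2424, 2702 and 2499 (0.03 ± 0.21). Gadd45g, a stress response gene, read 792, 645 and 730 and then 842, 684 and 1114, against 203 and 274 without IL-6 (0.26 ± 0.44). Both time groups overlapped for each of these 3 genes. Zfp36, which destabilises cytokine mRNAs, read 4472, 4323 and 1889 and then 4577, 4928 and 3137 (0.32 ± 0.26).

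Fc receptors for IgG, through which macrophages take up antibody-coated particles, did not all go one way in every replicate. Fcgr1, the high-affinity receptor, read 4144 and 4598 without IL-6, 6464, 7071 and 2418 at 100 min and 7649, 10816 and 5265 at 400 min, higher within each replicate number (0.66 ± 0.23, limma's adjusted p = 0.485). A second, less bright probe set gave 1.11, called with the robust intensity prior (limma's adjusted p = 0.011) but not in the main fit. Fcgr2b, the inhibitory receptor, read 138 and 146, then 1164, 1062 and 1060, then 905, 1575 and 4097, with the replicates at 400 min widely spread and the first of them below all early arrays (0.72 ± 0.42). Without WT replicate 3, the differences of Fcgr1 and Fcgr2b were 0.43 and 0.1 (limma's adjusted p = 0.755 and 0.985). Fcgr3, an activating receptor, was dim, at 178, 196 and 105 and then 252, 247 and 152, with overlap (0.46 ± 0.62, limma's adjusted p = 0.883).

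A list of IL-6 target genes was also taken from a contrast of the KO groups. It holds 106 genes whose level was called higher over both IL-6 times against unstimulated KO cells (123 of 9871 probe sets, 1.25%). The WT arrays entered the normalization, the filter and the estimate of spread behind these calls, so the list is not fully independent of them. In WT cells the median difference of the 106 genes between the times was -0.06, and it ran from -0.17 to 0.06 over the alternative fits. The late arrays lay below the early ones in 18 (17%) and above in 6 (5.66%), against 5.89% and 6.34% of all genes, and without WT replicate 3 below in 45, against 22.8% of all genes. For the 9 of these genes that the type I interferon list also holds, the median was -1.09, with all 9 of them negative and 2 of them lower with no overlap, Cxcl10 and Plscr1, a membrane protein with antiviral activity. The 97 not on that list had a median of 0, with 49 negative and 16 lower with no overlap. In the KO cells themselves, the medians of the 9 and of the 97 were -0.06 and 0.29. Among the 16 were the GTPase genes Iigp1, Irgm1, Irgm2, Igtp, Gbp3 and Gbp7, as well as Tap1 and Casp4, an inflammatory caspase.

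The other 8 of the 16 had mixed roles. Selp, the adhesion molecule P-selectin, read 262, 272 and 65.4 at 100 min and 60.2, 25.5 and 33.8 at 400 min, against 19.1 and 35.8 without IL-6 (-2.17 ± 0.51, limma's adjusted p = 0.295). Mmp13, a collagenase, read 270, 241 and 200 and then 127, 51.1 and 63.8, below its unstimulated 220 and 136 (-1.66 ± 0.33, limma's adjusted p = 0.21). Nampt, which makes a precursor of NAD, read 1729, 1803 and 1109 and then 797, 705 and 695 (-1.05 ± 0.23, limma's adjusted p = 0.243). Mt2, a metallothionein, lay between 6539 and 7210 and then between 4555 and 5135. The other members were Rnf19b, Zfp281, Bzw2 and Dck, with log2 differences of -0.92, -0.82, -0.93 and -0.82. The 6 that were higher with no overlap were Klf3, Ptpn1, Il4ra, Slc12a7, Myd88 and Tm2d2. Myd88, the adaptor of Toll-like receptors, read 2899, 2594 and 1752 and then 3788, 3358 and 3682 (0.61 ± 0.27).

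Among the genes with the highest late levels relative to 100 min, the C1q subunits and heme oxygenase stood out by their brightness. C1qa, a chain of the first complement component, read 5511 and 6712 without IL-6, 3502, 4577 and 3404 at 100 min and 8423, 10269 and 6567 at 400 min. The groups did not overlap, with a log2 difference of 1.13 ± 0.18, 2.19-fold higher (limma's adjusted p = 0.119), and the unstimulated level lay between the early and most of the late arrays. C1qc read 14477, 13912 and 4940 and then 26429, 22742 and 10816, higher within each replicate number but overlapping (0.9 ± 0.24, limma's adjusted p = 0.354). C1qb was at 24386, 23666 and 5393 and then at 29740, 28857 and 14477 (0.67 ± 0.28). Receptors for complement fragments were also higher with no overlap: C3ar1 by 0.78 ± 0.23 and C5ar1 by 0.81 ± 0.25. On the acute phase and complement list, 24 of 41 genes were tested, with a median of 0.27, which was 0.04 without WT replicate 2. With no overlap, 3 were higher (12.5%) and 1 was lower (4.17%), against 6.34% and 5.89% of all genes.

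Hmox1, the heme-degrading enzyme and a known IL-10 target, read 4261 and 5135 without IL-6, 4220, 2555 and 4261 at 100 min and 12119, 9654 and 8351 at 400 min. Late arrays lay well above both other groups, with a log2 difference of 1.47 ± 0.25, 2.77-fold higher (limma's adjusted p = 0.138, and 0.000679 to 0.7 over the 17 alternative fits). Klf3, a transcriptional repressor, read 151, 163 and 156 and then 469, 398 and 377 (1.4 ± 0.25, limma's adjusted p = 0.153). Its second, dimmer probe set gave 0.14. Rhog, a small GTPase of the cytoskeleton, read 1174, 1400 and 447 and then 2195, 2334 and 1380, higher within each replicate number (1.09 ± 0.2, limma's adjusted p = 0.17).

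Lysosomal genes leaned the same way with small differences. Of 44 listed, 39 were tested, and the median was 0.12. With no overlap, 6 were higher (15.4%) and 1 was lower (2.56%), against 6.34% and 5.89% of all genes. Ctsc, a protease that activates granule enzymes, read 4377, 3375 and 3253 and then 6002, 6126 and 5135 (0.66 ± 0.17, limma's adjusted p = 0.355). Smpd1, the acid sphingomyelinase, read 949, 1087 and 1013 and then 1628, 1635 and 1640, with almost no spread at 400 min (0.69 ± 0.22). Gla, a lysosomal galactosidase, read 103, 129 and 156 and then 246, 241 and 161 (0.73 ± 0.23).

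**Figure D4:**
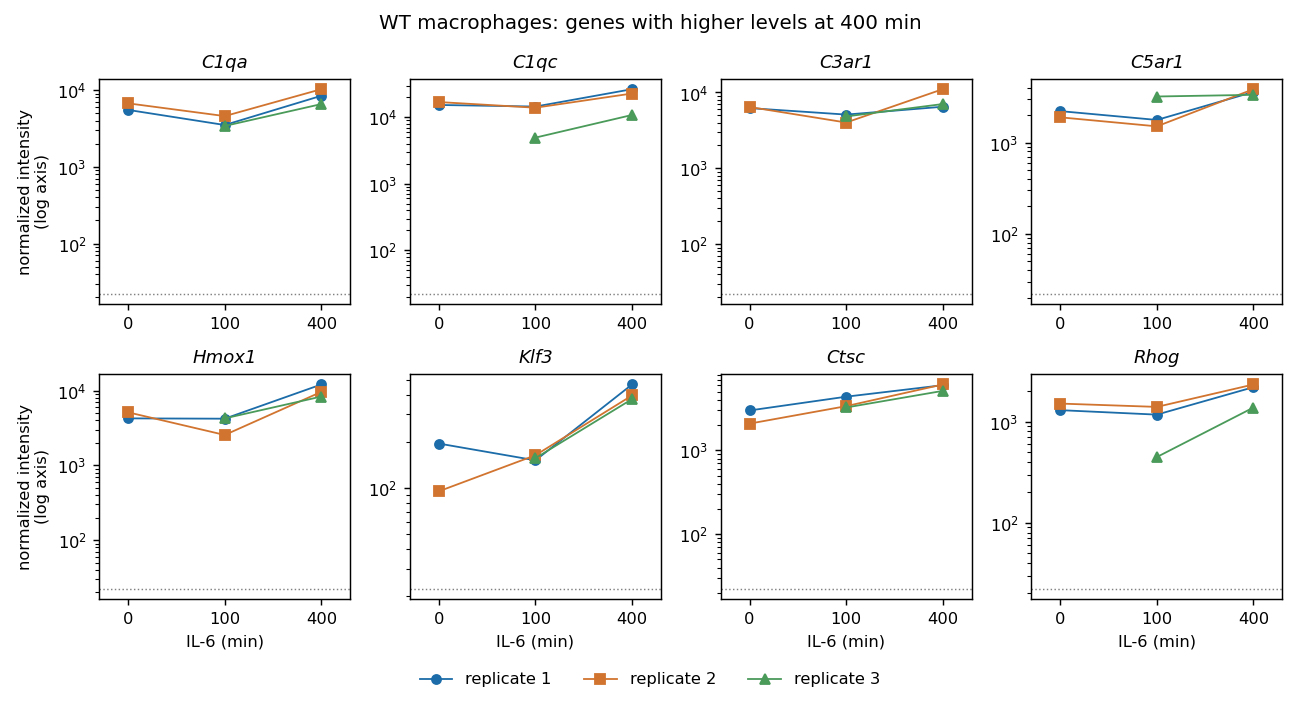
Normalized intensity (log axis) against minutes of IL-6 in WT macrophages for 8 genes with higher levels at 400 min, drawn as in the plot of the GTPase genes. C1qa and Hmox1 lie at 3404 to 4577 and 2555 to 4261 at 100 min and at 6567 to 10269 and 8351 to 12119 at 400 min.

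Further genes picked by the naming rule were dimmer or differ from these groups. Kif3b, a motor protein, read 167, 225 and 185 and then 614, 517 and 381 (1.37 ± 0.23, limma's adjusted p = 0.119). Ap1b1, an adaptor of vesicle transport, read 2571, 2824 and 1280 and then 4414, 5008 and 3479 (1.02 ± 0.2, limma's adjusted p = 0.206), though a dim second probe set gave -0.98. Sh3bp5, an inhibitor of the kinase Btk, averaged 137 ± 17 and 313 ± 88 (SD, n = 3). Kars, a lysyl-tRNA synthetase, read 11.6, 29.4 and 16.9 at 100 min, and its log2 difference of 3.04 was 0.99 at the lowest of 16 alternative fits. Sprr2d and Zfp276 had differences of 2.22 and 0.93.

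On the lower side, Emp1, an epithelial membrane protein, read 7112, 7112 and 10329 and then 2892, 3236 and 3889, with no overlap (-1.28 ± 0.23, limma's adjusted p = 0.152), and its unstimulated arrays read 5894 and 4715. Atp7b, a copper transporter, read 260, 249 and 154 and then 45.9, 57.8 and 71 (-1.91 ± 0.37, limma's adjusted p = 0.196). Lpl, lipoprotein lipase, read 10816, 11954 and 14281 and then 8382, 8627 and 4431 (-0.84 ± 0.26, limma's adjusted p = 0.433). Of 60 cell cycle genes tested, 47 had a negative difference, with a median of -0.29. The late arrays lay below the early ones in 3 (5%) and above in 5 (8.33%), against 5.89% and 6.34% of all genes. Mki67, the proliferation marker, read 2788, 2051 and 2346 and then 1673, 1401 and 1901 (-0.53 ± 0.19, limma's adjusted p = 0.486), while its second, dim probe set gave 0.31.

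The next 3 lists had medians close to the -0.01 of all genes, of which 6.34% were higher and 5.89% lower with no overlap. Inflammatory genes of NF-kappaB had 34 tested members, 1 higher (2.94%) and 3 lower (8.82%) with no overlap and a median of 0.01. Ptgs2, the inducible cyclooxygenase, was the lowest of those named, at 72.1, 97.1 and 99.8 and then 37, 13.6 and 12.2 (-1.76 ± 0.54, limma's adjusted p = 0.433). Immediate early genes had 33 tested members with 0 higher, 1 lower (3.03%) and a median of 0.02. Atf3, a stress-induced repressor, was the lower one, between 3936 and 4598 and then between 2544 and 2930 (-0.65 ± 0.2). Feedback inhibitors of signalling and mRNA stability (34 tested) had 2 higher (5.88%), 1 lower (2.94%) and a median of 0.03. This list includes Socs1, Socs2, Socs3 and Cish, which the JAK-STAT and gp130 list also holds. Tgfb1, an anti-inflammatory cytokine on that list, read 850, 1177 and 1156 and then 2763, 2340 and 1322 (0.96 ± 0.39). MHC class II and costimulation (15 tested) lay farther from all genes, with a median of 0.41 that was 0.12 without replicate 3. Of its members 2 (13.3%) were higher with no overlap, H2-Aa and H2-DMb1, and 1 (6.67%) lower, Cd83.

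Metabolic and polarisation lists gave similar counts, set beside 6.34% higher and 5.89% lower of all genes. Alternative activation genes (21 tested) had 2 higher (9.52%), Il4ra and Fn1, and 1 lower (4.76%), Pparg, with a median of -0.07. Arg1, the arginase of alternatively activated cells, was dim, at 66.2, 45.3 and 127 and then 119, 177 and 179 (1.1 ± 0.83). Cholesterol and lipid genes (30 tested) had 2 higher (6.67%), Insig1 and Fabp5, and 1 lower (3.33%), Lpl, with a median of 0.08. Ch25h, which makes the immune oxysterol 25-hydroxycholesterol and is interferon-inducible, read 163 and 210 without IL-6, 599, 720 and 222 at 100 min and 166, 230 and 162 at 400 min (-1.32 ± 0.38, limma's adjusted p = 0.425). Glycolysis and hypoxia genes (23 tested) had 0 higher, 1 lower (4.35%) and a median of -0.1.

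Set beside the 2 unstimulated WT arrays, replicate numbers 1 and 2 gave the early and late levels as follows, and both values use the same unstimulated arrays. The median type I interferon gene stood at a log2 difference of 0.65 at 100 min and -0.21 at 400 min, and 15 of the 32 genes were below both unstimulated arrays at 400 min, against 853 of all 7063 genes. IL-6-raised genes of KO cells stood at 0.9 and then 0.7, and 49 of the 106 were above both unstimulated arrays at 400 min, against 720 of all 7063 genes. STAT3 targets stood at 0.57 and 0.41, and all genes at 0.01 and -0.02.

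For several GTPase genes the late arrays of KO cells were not below the early ones, and the difference between the genotypes was tested as an interaction in the same fit. Iigp1 read 1199, 959 and 600 at 100 min and 1245, 1310 and 2611 at 400 min in KO cells, a log2 difference of 0.88 against -3.31 in WT cells. The interaction was 4.19 ± 0.76 with limma's adjusted p of 0.252, so it did not pass. Ifi47 read 3783, 3470 and 1468 and then 4295, 4253 and 2555 in KO cells, with an interaction of 2.48 ± 0.38 (limma's adjusted p = 0.169). Ccl7 read 9402, 7265 and 1604 and then 14575, 13737 and 2930, with an interaction of 2.33 ± 0.32 (limma's adjusted p = 0.139). Gbp3 had an interaction of 2.65 ± 0.62 (limma's adjusted p = 0.601). The third KO value at 400 min comes from the array labelled KO 400 min replicate 3, on which Socs3 was read; without it the interactions of Iigp1, Ifi47, Ccl7 and Gbp3 were 3.66, 2.43, 2.31 and 2.68 (limma's adjusted p = 0.418, 0.409, 0.405 and 0.552). With the intensity-dependent robust prior, Ifi47, Ccl7, Iigp1 and Gbp3 passed, at limma's adjusted p of 0.00667, 0.0164, 0.0358 and 0.0474, which are the lowest over the 17 alternative fits, the highest being 0.999, 0.999, 0.622 and 0.928. Gbp2 and Fgl2 also passed under that prior (limma's adjusted p = 0.0474 and 0.0164), and Ccl7 with the stricter filter (limma's adjusted p = 0.0457).

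Other interferon genes were lower late in both genotypes. Usp18 had a log2 difference of -1.52 in WT and -1.32 in KO cells, Ifit1 of -1.86 and -1.48, and Ifit3 of -2.71 and -2.05, with interactions between 0.21 and 0.66, limma's adjusted p between 0.977 and 0.985. Irgm1 and Irgm2 lay between these cases, with KO differences of -0.85 and -0.8. The median of the type I interferon list in KO cells was -0.2. In KO cells the late arrays lay below the early ones in 6 of the 32 genes and above in 1. Over all 7063 genes these counts were 551 and 537. In WT cells the list had 7 lower and 0 higher with no overlap.

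**Figure D5:**
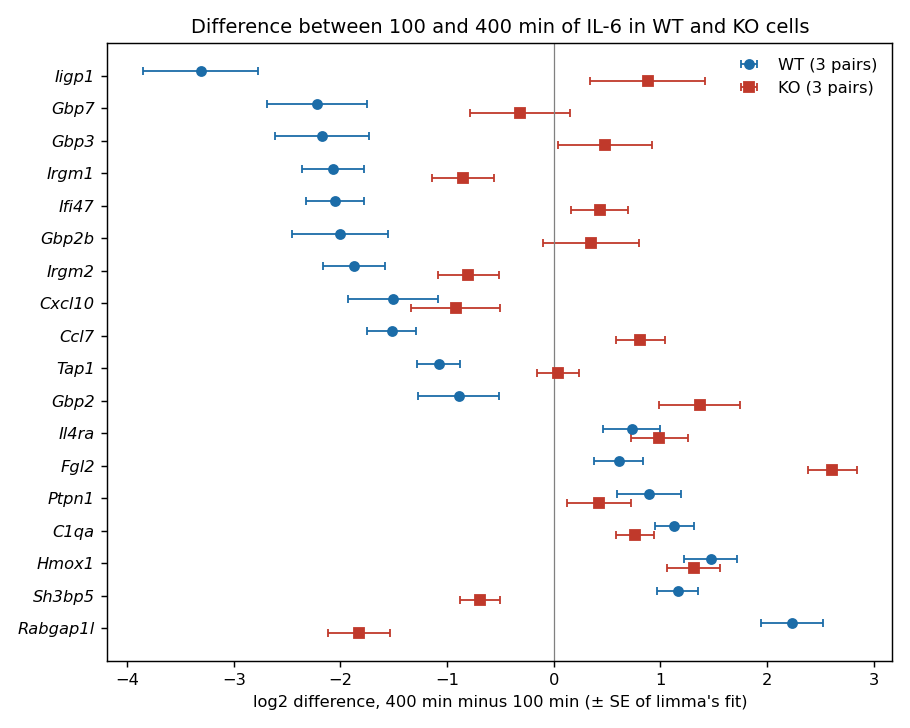
Log2 difference between 400 and 100 min (horizontal axis) with the SE of the limma fit as bars, for 18 genes in WT cells (circles, 3 pairs of arrays) and KO cells (squares, 3 pairs). For Iigp1 the WT value is -3.31 and the KO value 0.88, for Hmox1 they are 1.47 and 1.31, and for Rabgap1l 2.23 and -1.83.

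The interaction called 1 probe set of 9871 (0.0101%) lower and 0 higher, and 546 (5.53%) passed at an unadjusted p under 0.05. The 1 called was Rabgap1l, which encodes a GTPase-activating protein for Rab proteins, and all its intensities were low. In WT cells it read 33.9, 19.2 and 35.6 at 100 min and 121, 165 and 136 at 400 min, and in KO cells 122, 175 and 151 and then 24.1, 66.1 and 44.5. The interaction was -4.06 ± 0.41 (limma's adjusted p = 0.0348). It was called in 3 of 16 alternative fits and not in 13, with values between -4.28 and -1.04 and limma's adjusted p between 0.00929 and 0.634, and the WT difference ran from 0.48 to 2.42. Between the times in KO cells, 1 probe set (0.0101%) rose, Fgl2, by 2.61 ± 0.23 (limma's adjusted p = 0.00932, called in 8 of 17 alternative fits). In WT cells Fgl2 read 1193, 1118 and 232 and then 1765, 1927 and 323, a difference of 0.61 with an interaction of 2 ± 0.32 (limma's adjusted p = 0.202). Alcam, an adhesion molecule, fell in KO cells (-2.11, limma's adjusted p = 0.037, called in 7 of 17 alternative fits) and had a WT difference of -1.13. Without the array labelled KO 400 min replicate 3, none of these 3 calls passed: the interaction of Rabgap1l was -4.05 (limma's adjusted p = 0.237), and the KO differences of Fgl2 and Alcam were 2.49 and -2.01 (limma's adjusted p = 0.0766 and 0.0857).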

How the data were processed

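The deposited table gives 1 linear intensity per probe set and array; the authors' software, background correction and scaling procedure are not stated by the labels or the file header, and there are no detection calls. The platform's annotation gave 1 symbol to 10855 of 12488 probe sets, several to 396 and none to 1237, and a gene is represented by its brightest probe set. Intensities were quantile normalized between arrays, floored at the 10th percentile (22.01) and log2 transformed, and 66 control probe sets were left out. Levels in the text are normalized intensities before the floor. Probe sets had to exceed the 40th percentile of the array on 2 or more arrays to be tested, which left 9871 probe sets, 7063 genes. limma 3.58.1 (R 4.3.3) was fitted over all 17 arrays, with 1 mean per group and a block for each replicate number within genotype, two-sided, with Benjamini-Hochberg adjustment over all probe sets tested in each of 5 comparisons. It was tested on simulated data.

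Named genes are the 10 lower and 10 higher genes with the smallest p among those of 1 sign in all 3 replicate numbers, since none was called, up to 4 genes of each of 15 pathway lists and up to 2 of each of 8 marker lists, the extremes of the IL-6-raised genes of KO cells, and Socs3, Il4ra, Stat3, Socs1, Irf1, Cxcl10, Il6st and Il6ra. Of the pathway lists, 1 is not reported here. Other list members named were chosen after their values were seen. The comparison and the lists were chosen with earlier results of these data known. Alternatives varied the scaling, floor, filter, block, arrays in the fit, variance prior and replicates.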

Additional observations from a re-analysis of the deposited data

Results flagged for a closer look

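Rabgap1l was singled out because the difference between 400 and 100 min ran in opposite directions in WT and KO cells and the difference between the genotypes passed its own test, at -4.06 on the log2 scale. All 3 WT replicate numbers were higher and all 3 KO replicate numbers lower at 400 min. The call was lost in 13 of 16 alternative fits, over which the value ran from -4.28 to -1.04, and the intensities on which it rests lie between 19.2 and 175. No cause was tested.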

How the results depend on the processing

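Counts below are probe sets called by limma at an adjusted p under 0.05. For WT 400 versus 100 min (0 higher, 0 lower), the stricter filter gave 7 and 10, the floor of 100 gave 3 lower, a block shared by both genotypes 2 and 3, and the robust intensity prior 26 and 27; leaving out replicates gave 0 to 2 lower, the 2 without WT replicate 3. For the difference between the genotypes, the call of 1 lower became 0 with the deposited scaling, either floor, no filter, only the groups compared with the block, the robust prior or without the array labelled KO 400 min replicate 3, and 2 with a shared block or only the groups compared and no block; leaving out replicates gave 0 to 1. Its 0 higher became 2 with the stricter filter and 9 with the robust prior.

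For KO 400 versus 100 min (1 higher, 1 lower), the floor of 100 gave 32 and 29, the stricter filter 33 and 39, the robust prior 70 and 96, a shared block 4 lower, no filter 0 lower, and 0 of each followed from only the groups compared or from leaving out the array labelled KO 400 min replicate 3; leaving out replicates gave 0 to 1 higher and 0 to 2 lower. For IL-6-raised and IL-6-lowered probe sets of KO cells (123 and 33), the stricter filter gave 208 and 99, the robust prior 238 and 130, only the groups compared 71 and 6 with the block and 79 and 8 without it, the floor of 100 gave 62 lower and no filter 12 lower; leaving out replicates gave 19 to 130 higher and 0 to 30 lower. In WT cells (5 higher, 0 lower), the deposited scaling, the floor of 1 and a shared block gave 3, the floor of 100 gave 8, the stricter filter 10, the robust prior 30, only the groups compared 0, and no filter 1 lower; leaving out replicates gave 0 to 7 higher and 0 to 2 lower.

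Same-numbered WT arrays deviated together only weakly (correlations 0.11, 0.06 and 0.19, in KO cells 0.03, 0.06 and 0.14), so the numbers are not shown to pair the samples, and the block was kept because the comparison is defined with it. With no replicate block, WT 400 versus 100 min had 0 higher and 0 lower calls (622 at an unadjusted p under 0.05), KO 400 versus 100 min 0 and 0, the difference between the genotypes 2 lower, IL-6-lowered probe sets of KO cells 20 and IL-6-raised ones of WT cells 1.

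Leaving out 1 WT replicate, the counts lower with no overlap ran from 10 to 24 for the type I interferon list and 23 to 45 for IL-6-raised genes of KO cells, against 13.9% to 22.8% of all genes. Of 97 named values, 3 changed sign: Socs1 (0.01 with the deposited scaling, -0.49 to 0.19 leaving out replicates, the lowest without WT replicate 3), Ocln (-0.14 to 0.13 leaving out replicates, the lowest without WT replicate 2) and the second probe set of Socs3 (-0.03 to 0.73, the lowest without WT replicate 3). The causes were not tested. With 3 arrays a time and no detection calls, small differences and dim probe sets cannot be resolved.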
